A study of Mus musculus with 2 samples.

Results

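The mouse miR-18 family consists of 2 hairpins, mir-18a and mir-18b, and each hairpin gives a 5p and a 3p mature miRNA. The 4 mature miRNAs miR-18a-5p, miR-18a-3p, miR-18b-5p and miR-18b-3p were followed by name through small RNA sequencing libraries of control helper T cells (Th0) and of cells cultured toward the interleukin-17-producing state (Th17). All 4 were listed in both libraries, among 986 listed miRNAs in Th0, 1012 in Th17 and 1125 in either. The labels give naive CD4+CD62L+ T cells from the spleen of female C57BL/6 mice as the source of both cultures, grown in medium with 10% serum. Both groups received 1 µg/ml anti-CD28, 5 µg/ml anti-IL-4 and 5 µg/ml anti-IFN-γ, and none of the Th17 additions that follow is listed for Th0 cells. For the Th17 group 2 more blocking antibodies were added, 5 µg/ml anti-IL-2 with 5 µg/ml anti-IL-12. The Th17 cytokines were 2 ng/ml TGF-β, 40 ng/ml IL-6, 10 ng/ml IL-1β and 40 ng/ml IL-23, and this culture ran for 6 to 7 days. How long Th0 cells were cultured is not stated in the labels, so culture time and Th17 conditions cannot be told apart.

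A hairpin precursor is cut into a duplex of a 5p and a 3p strand, and the strand that is loaded into an Argonaute protein is kept while the other is mostly degraded. The loaded miRNA finds target mRNAs chiefly through its seed, bases 2 to 8. miR-18a is one of the products of the Mir17 cluster, whose primary transcript is induced by Myc and supports lymphocyte proliferation. Within that cluster miR-18a has been reported to restrain Th17 differentiation through targets such as Smad4, Hif1a and Rora, whereas miR-17 and miR-19b have been reported to promote it. mir-18b belongs to the X-linked Mir106a cluster, a paralog of the Mir17 cluster.

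The mature sequences below show which of the 4 can share targets and how closely the paralogs resemble each other. They are from RefSeq (GRCm38.p6, the assembly of mm10), 5′ to 3′, with the seed in capitals, and all 4 members had an entry.
miR-18a-5p: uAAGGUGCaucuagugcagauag
miR-18b-5p: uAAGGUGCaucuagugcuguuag
miR-18a-3p: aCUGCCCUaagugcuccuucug
miR-18b-3p: uACUGCCCuaaaugccccuucu
miR-17-5p: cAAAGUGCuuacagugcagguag
miR-20a-5p: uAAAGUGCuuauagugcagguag

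miR-18a-5p and miR-18b-5p shared the seed AAGGUGC, and among the 1679 distinct mature names of the RefSeq table no other held it. They were identical over their first 17 bases and differed at 2 of 23 positions, A18U and A20U, counted from the 5′ end of miR-18a-5p with its base first. The 3p arms were aligned with miR-18b-3p starting 1 base earlier, which left 19 of 21 paired positions identical and gave the substitutions G11A and U15C in miR-18a-3p numbering. Because of that earlier start their seeds were different words, CUGCCCU for miR-18a-3p and ACUGCCC for miR-18b-3p. Both words hold the stretch CUGCCC, so these seeds overlap without being the same. In the RefSeq table miR-7069-3p also held the seed of miR-18a-3p. miR-17-5p and miR-20a-5p, encoded beside mir-18a, carry the seed AAAGUGC. Read from miR-20a-5p to miR-18a-5p, the change inside the seed was A4G, and 19 of the 23 bases were the same. No header or label says how reads of such near-identical miRNAs were assigned, and the division between miR-18a and miR-18b is uncertain to that extent.

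The hairpins show where the 2 arms lie within each precursor, with the mature arms in capitals.
Mir18: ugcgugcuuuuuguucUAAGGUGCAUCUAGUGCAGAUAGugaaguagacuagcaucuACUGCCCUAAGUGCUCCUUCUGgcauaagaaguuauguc
Mir18b: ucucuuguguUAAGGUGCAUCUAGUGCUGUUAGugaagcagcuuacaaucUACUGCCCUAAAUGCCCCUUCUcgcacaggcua
Mir18, the gene of mir-18a, lies at chr14:115043851-115043946 on the plus strand (GRCm38) and is 96 bases long, with 18 bases between its arms. It lies within an exon of Mir17hg, the noncoding host transcript (chr14:115042879-115046727), 96 bases after Mir17 and 53 bases before Mir19a. Mir18b lies at chrX:52742331-52742413 on the minus strand and is 83 bases long, with 17 bases between its arms. No other GENCODE gene overlaps it, and it stands 89 bases from Mir106a and 138 bases from Mir20b.

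Listed reads totalled 8358010 in Th0 and 11975371 in Th17, and levels are given as CPM, reads scaled to a common total of 1000000 listed reads. There was 1 column of reads per group, so each 95% interval covers counting error only, the spread between cultures is not known and no test between the conditions was possible. The labels state triplicates, so each column may be 1 of several replicates or a pool of them, and the files do not say which. Where library is written below, it means this column. miRNAs of blood and T cells were abundant: the 5 on that list (miR-142a-5p, miR-142a-3p, miR-150-5p, miR-181a-5p, miR-155-5p) summed to 95954 CPM in Th0 and 133180 in Th17. Of these 5, 4 had intervals above equal levels, and miR-142a-3p was lower, at 2194 CPM in Th0 and 1153 in Th17. Myeloid miRNAs (miR-223-3p, miR-223-5p) summed to 3.35 and 6.93 CPM and erythroid ones (miR-451a, miR-144-3p, miR-144-5p) to 0.838 and 3.51 CPM, with miR-223-5p and miR-144-3p at 0 reads in Th0. Of 5 endothelial and epithelial miRNAs (miR-126a-3p, miR-126a-5p, miR-200a-3p, miR-200b-3p, miR-429-3p), 4 were at least 2-fold lower in Th17, against 13.1% of the 298 miRNAs averaging 10 CPM or more, and the 5 summed to 421 CPM in Th0 and 161 in Th17. That list leaves out the related hairpins mir-141 and mir-200c. Their 3p arms had log2 ratios of Th17 to Th0 of -0.42 (miR-141-3p) and 0.46 (miR-200c-3p). Of the 5 listed, miR-126a-3p and miR-126a-5p are arms of 1 hairpin and are not separate markers. miR-126a-5p was only just past 2-fold, with a log2 ratio of -1.02. The part of the 5 listed miRNAs in the lower levels of miR-18 below was not tested. In bulk libraries of this kind fewer cells of a type and less RNA per cell cannot be told apart.

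Of the 4 members 3 were much lower in Th17 and miR-18a-3p was nearly level. miR-18a-5p, the guide strand to which the Th17 role is ascribed, had 2834 reads in Th0 and 1453 in Th17. That was 339 CPM (exact Poisson interval 327 to 352) against 121 CPM (115 to 128), or 2.79-fold lower (2.62 to 2.98), and the 2 intervals lay far apart. miR-18a-3p, the opposite strand of the same hairpin, had 1029 reads in Th0 and 1284 in Th17. Its level was 123 CPM (116 to 131) and 107 CPM (101 to 113), 1.15-fold lower (1.06 to 1.25). The 2 arms of mir-18a therefore stood 216 CPM apart in Th0 and 14.1 CPM apart in Th17.

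miR-18b-5p, which shares its seed with miR-18a-5p, had 1030 reads in Th0 and 239 in Th17. It was at 123 CPM (116 to 131) in Th0, the level of miR-18a-3p there, and at 19.96 CPM (17.5 to 22.7) in Th17. This 6.17-fold difference (5.36 to 7.14) was larger than that of miR-18a-5p, and their intervals did not overlap. miR-18b-3p, the least abundant of the family, had 306 and 109 reads, or 36.6 CPM (32.6 to 41.0) and 9.10 CPM (7.47 to 10.98). It was 4.02-fold lower in Th17 (3.22 to 5.05).

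**Figure D1:**
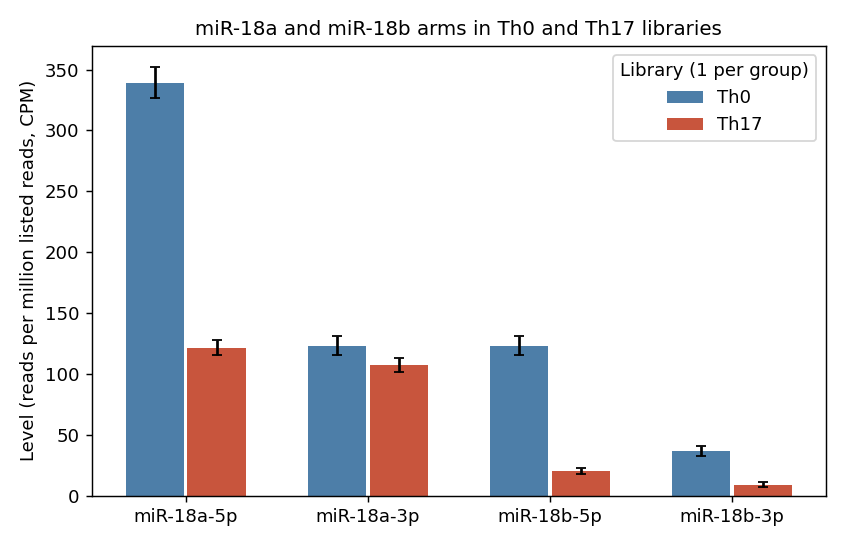
Level of each miR-18 arm in the Th0 and the Th17 library, in CPM. Bars are the single library of each group and error bars are exact 95% Poisson intervals of counting error. miR-18a-3p is at 123 and 107 CPM, while miR-18a-5p, miR-18b-5p and miR-18b-3p are each at least 2-fold lower in Th17.

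Read against all miRNAs, 298 averaged 10 CPM or more over both libraries, of which 13.1% were at least 2-fold lower and 6.71% at least 2-fold higher in Th17. Of the 4 members 3 were past that fold on the lower side and 0 on the higher. All 4 passed the minimum, miR-18b-3p only through its level in Th0. On the log2 scale the Th17 to Th0 ratio was -1.48 for miR-18a-5p (-1.57 to -1.39), -0.20 for miR-18a-3p (-0.32 to -0.080), -2.63 for miR-18b-5p (-2.84 to -2.42) and -2.01 for miR-18b-3p (-2.34 to -1.69). The median over the 298 was -0.080, which lies at the upper bound of the miR-18a-3p interval. Counted from the lowest ratio, miR-18b-5p stood at place 7 of 298, miR-18b-3p at 13, miR-18a-5p at 24 and miR-18a-3p at 127.

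By abundance, the order of the family in Th0 was miR-18a-5p, then miR-18b-5p and miR-18a-3p, which differed by 1 read, then miR-18b-3p. In Th17 it was miR-18a-5p, miR-18a-3p, miR-18b-5p and miR-18b-3p, and no neighbouring intervals overlapped. Among all miRNAs of a library, miR-18a-5p held rank 107 in Th0 and 144 in Th17, while miR-18a-3p held rank 147 in Th0 and 147 in Th17. The 4 members together went from 622 to 258 CPM, 2.41-fold lower (2.31 to 2.53). Within that sum miR-18a-5p made up 54.5% of the reads in Th0 and 47.1% in Th17, and miR-18a-3p went from 19.8% to 41.6%. Summed over the seed-sharing 5p arms the level was 3.27-fold lower (3.09 to 3.47), and summed over the 3p arms it was 1.37-fold lower (1.27 to 1.48).

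The arm balance does not depend on how the libraries are scaled. In mir-18a the 5p arm had 2.75 reads for each 3p read in Th0 and 1.13 in Th17. As a share of both arms this was 73.4% (exact binomial interval 71.9 to 74.8%) of 3863 reads in Th0 and 53.1% (51.2 to 54.97%) of 2737 reads in Th17. The 5p to 3p odds were thus 2.43-fold higher in Th0 (exact conditional interval 2.19 to 2.70). In mir-18b the 5p share was 77.1% (74.7 to 79.3%) of 1336 reads in Th0 and 68.7% (63.5 to 73.5%) of 348 reads in Th17, with odds 1.54-fold higher in Th0 (1.17 to 2.00). Both paralogs leaned further toward 3p in Th17. The odds ratio of mir-18a was the larger, and its interval did not overlap that of mir-18b.

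Of 178 hairpins with at least 100 reads of both arms in each library, 2.81% had a 5p share lower in Th17 by at least 10 percentage points, and 0% had one higher by as much. mir-18a, with -20.3 points, was one of these 5 hairpins, and mir-18b, with -8.42 points, was not. The one hairpin that moved further than mir-18a was mir-219a, joined over its 2 loci, from 38.2% (32.03 to 44.7%) of 238 reads to 14.7% (11.1 to 19.0%) of 333. For this joined entry a change in the mix of loci cannot be told apart from a change of arm. The other 3 of these 5 hairpins were mir-106b, mir-700 and mir-466d, the last pair named after their values were seen. The intervals of mir-466d in the 2 libraries overlapped. The median absolute shift over the 178 was 0.463 points. A share near 0 or 100% has little room to move in points, so the odds were also read. Of the 167 hairpins with both arms present in both libraries, 11.4% had 5p to 3p odds at least 2-fold lower in Th17 and 7.19% at least 2-fold higher. On that scale mir-18a stood at place 12 and mir-18b at place 28 from the highest odds ratio of Th0 over Th17.

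**Figure D2:**
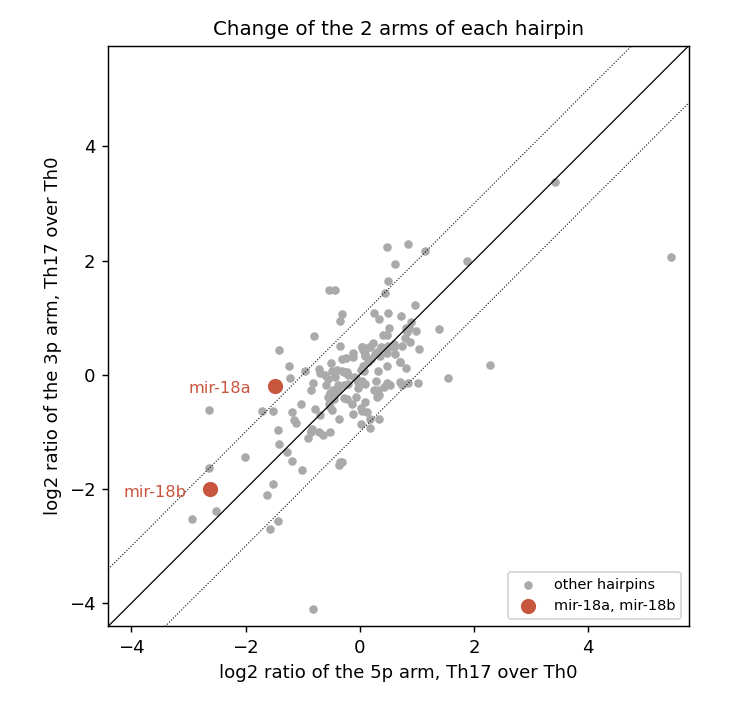
Log2 ratio of Th17 over Th0 for the 5p arm (x axis) and the 3p arm (y axis) of each of 167 hairpins with at least 100 reads and both arms present in each library. The solid line marks equal change of both arms and the dotted lines a 2-fold difference between them. mir-18a, at -1.48 and -0.20, lies above the upper dotted line, and mir-18b, at -2.63 and -2.01, lies between the lines.

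The 2 paralogs also differed from each other in their listed reads. There were 2.75 reads of miR-18a-5p for each read of miR-18b-5p in Th0 (2.56 to 2.96) and 6.08 in Th17 (5.30 to 7.00), a 2.21-fold increase of the ratio (1.89 to 2.59). miR-18a-5p thus made up 73.3% of the reads with this seed in Th0 (71.9 to 74.7%) and 85.9% in Th17 (84.1 to 87.5%). The same ratio between the 3p arms, 3.36 in Th0 (2.96 to 3.83), reached 11.8 in the Th17 library (9.68 to 14.5) and was 3.50-fold higher there (2.76 to 4.47). With both arms summed, mir-18a was 2.02-fold lower in Th17 (1.93 to 2.12) and mir-18b 5.50-fold lower (4.88 to 6.21). In both arms the reads listed to mir-18b were thus the more reduced, given the uncertain division of reads between the paralogs.

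Each paralog was then set beside the miRNAs of its own cluster, using ratios of reads within a library, which leave scaling out. In total 22 pairs were computed. miR-17-5p and miR-20a-5p share their seed with miR-106a-5p and miR-20b-5p of the X-linked cluster. How reads were divided among them is not stated either. Pairs with these miRNAs, and the separation of the clusters by locus, carry that uncertainty. miR-18a-5p changed by nearly the same factor as miR-20a-5p, a miRNA of the miR-17 seed family on the same transcript: there were 0.312 reads of it per miR-20a-5p read in Th0 (0.299 to 0.325) and 0.297 in Th17 (0.280 to 0.315). The change was 0.953-fold, with an interval of 0.886 to 1.03 that holds 1. Against miR-17-5p, whose hairpin is the nearest upstream neighbour, the ratio went from 0.230 (0.221 to 0.240) to 0.183 (0.173 to 0.194), a change of 0.795-fold (0.741 to 0.852). Against miR-19a-3p, whose hairpin is the nearest downstream neighbour, it went from 1.33 (1.26 to 1.41) to 3.10 (2.80 to 3.45), a change of 2.34-fold (2.07 to 2.64). Against miR-17-3p the change was 0.620-fold (0.568 to 0.677) and against miR-92a-1-5p 0.588-fold (0.547 to 0.632). miR-18a-5p was thus reduced more than miR-17-5p, miR-17-3p and miR-92a-1-5p and less than miR-19a-3p. All are encoded in the same cluster, and the level of its transcript was not measured.

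miR-18a-3p had a higher ratio in Th17 against each of the 5 cluster miRNAs it was paired with. Per read of miR-17-3p, itself the less abundant strand of its hairpin, there were 0.426 reads of miR-18a-3p in Th0 (0.395 to 0.458) and 0.642 in Th17 (0.598 to 0.689), a change of 1.51-fold (1.36 to 1.67). Per read of miR-17-5p the change was 1.93-fold (1.77 to 2.11), and per read of miR-20a-5p it was 2.32-fold (2.12 to 2.54). Of the 8 miRNAs at 10 CPM or more that are listed to the chromosome 14 cluster alone, miR-18a-3p had the ratio of Th17 to Th0 closest to equal levels.

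On the X chromosome miR-18b-5p changed by nearly the same factor as miR-106a-5p, from 0.505 reads per miR-106a-5p read (0.468 to 0.544) to 0.511 (0.435 to 0.598), a change of 1.01-fold (0.847 to 1.21). Against miR-20b-5p, which has also been described as a brake on Th17 cells, it changed 1.25-fold (1.06 to 1.46), and against miR-363-3p 0.842-fold (0.726 to 0.975). Pairs with miR-20b-3p and miR-363-5p gave intervals for miR-18b-5p that hold 1. miR-18b-3p changed 1.55-fold against miR-106a-5p (1.21 to 1.99) and 1.92-fold against miR-20b-5p (1.51 to 2.42). Its pair with miR-20b-3p gave 1.42-fold with an interval of 0.966 to 2.12. Against miR-363-5p miR-18b-3p changed 1.42-fold (1.02 to 1.98) and against miR-363-3p 1.29-fold (1.03 to 1.62).

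The position of the family within the clusters can be read from the log2 ratios. The 3 lists are the Mir17, Mir106a and Mir106b clusters, the last a further paralog within Mcm7 that holds no miR-18. Of their 28 listed miRNAs, 23 averaged 10 CPM or more, and 13 of the 23 were at least 2-fold lower in Th17, against 13.1% of all 298. The 13 include 3 of the 4 miR-18 arms. Of the 23, 4 passed the minimum only through their level in Th0 (miR-363-5p, miR-20b-3p, miR-20a-3p and miR-18b-3p). All 4 are among the 13, so the minimum itself favours that count. In the Mir17 list, without the miR-18 arms, 5 of 8 measured miRNAs were past that fold. The 5 include miR-20a-3p, and the median of the 8 was -1.18. Their log2 ratios ran from -2.71 for miR-19a-3p through -2.56 for miR-19b-3p, -1.41 for miR-20a-5p, -1.21 for miR-20a-3p, -1.15 for miR-17-5p and -0.99 for miR-92a-3p to -0.79 for miR-17-3p and -0.72 for miR-92a-1-5p. miR-18a-5p at -1.48 stood inside that range and miR-18a-3p at -0.20 above it. miR-19b-3p and miR-92a-3p each have precursors in both clusters in the files, and their reads cannot be split by locus.

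In the Mir106a list, without the miR-18 arms, 6 of 7 measured miRNAs were past 2-fold on the lower side. The 6 include miR-363-5p and miR-20b-3p, which passed the minimum only through Th0, and the median of the 7 was -2.52. The 5 that are listed to the X-linked cluster alone lay between -2.95 for miR-20b-5p and -2.38 for miR-363-3p. Of these, miR-106a-5p was at -2.64 and miR-363-5p and miR-20b-3p were both at -2.52. miR-18b-5p at -2.63 was inside this range and miR-18b-3p at -2.01 was above it. In the Mir106b list 0 of 6 were at least 2-fold lower, from -0.85 for miR-106b-5p and -0.83 for miR-93-5p to -0.15 for miR-93-3p. miR-18a-3p at -0.20 had the ratio of the Mir106b members miR-25-5p, also at -0.20, and miR-25-3p, at -0.17, with overlapping intervals.

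**Figure D3:**
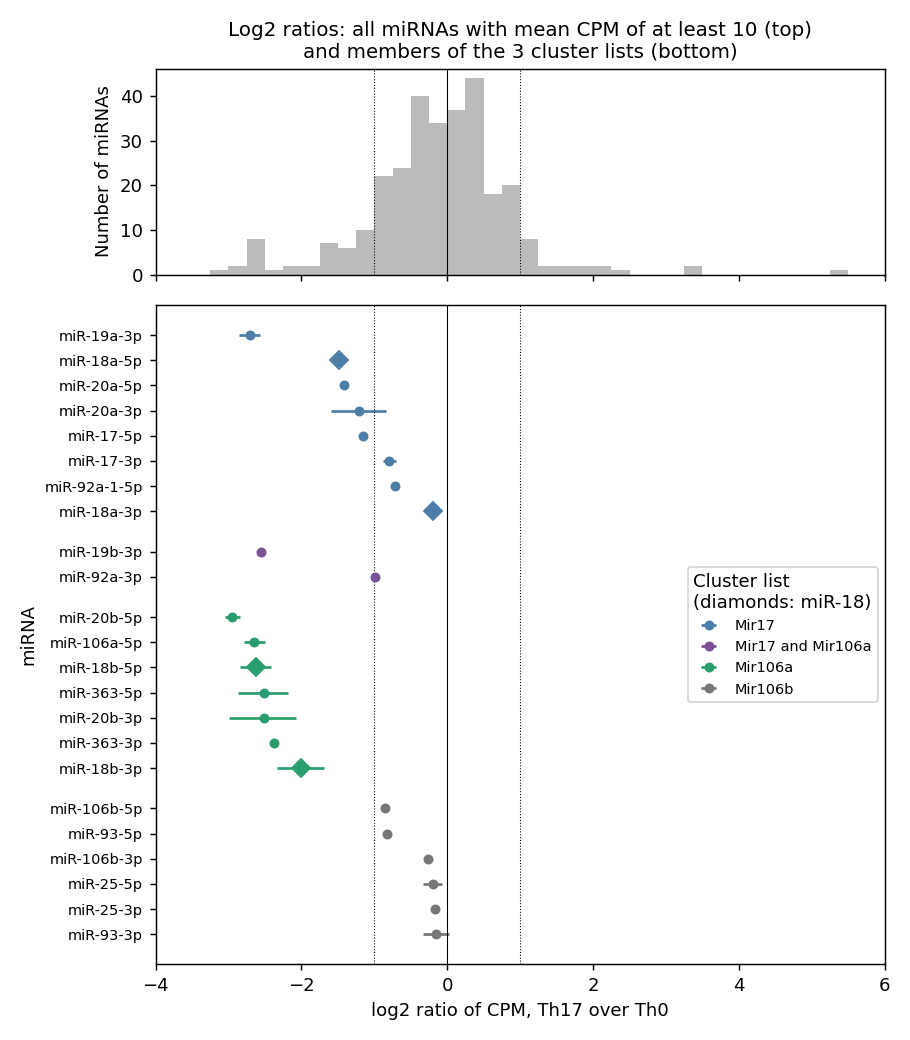
Top, number of miRNAs at each log2 ratio of Th17 over Th0 for the 298 miRNAs that average 10 CPM or more. Bottom, the 23 such members of the 3 cluster lists with 95% counting intervals, diamonds for miR-18 arms and dotted lines at 2-fold. miR-18a-3p, at -0.20, is the highest point of the Mir17 list, miR-18b-5p, at -2.63, lies among the X-linked miRNAs, and miR-18b-3p, at -2.01, lies above them.

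In percentage points, the 5p share of the other hairpins in the clusters moved less than that of mir-18a. mir-106b came nearest, from 56.9% (56.1 to 57.7%) in Th0 to 46.8% (45.9 to 47.6%) in Th17. mir-17, the hairpin before mir-18a, went from 83.6% (83.0 to 84.2%) to 79.9% (79.1 to 80.7%). mir-20a, which gives almost only its 5p arm, stood at 98.3% and 98.1% with overlapping intervals. mir-19a, which is read mainly from its 3p arm, went from 3.66% (2.92 to 4.53%) to 7.69% (5.53 to 10.4%). On the odds scale this was a 2.19-fold change toward 5p (1.44 to 3.30). Its size was near the 2.43-fold change toward 3p of mir-18a (2.19 to 2.70), with overlapping intervals.

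**Figure D4:**
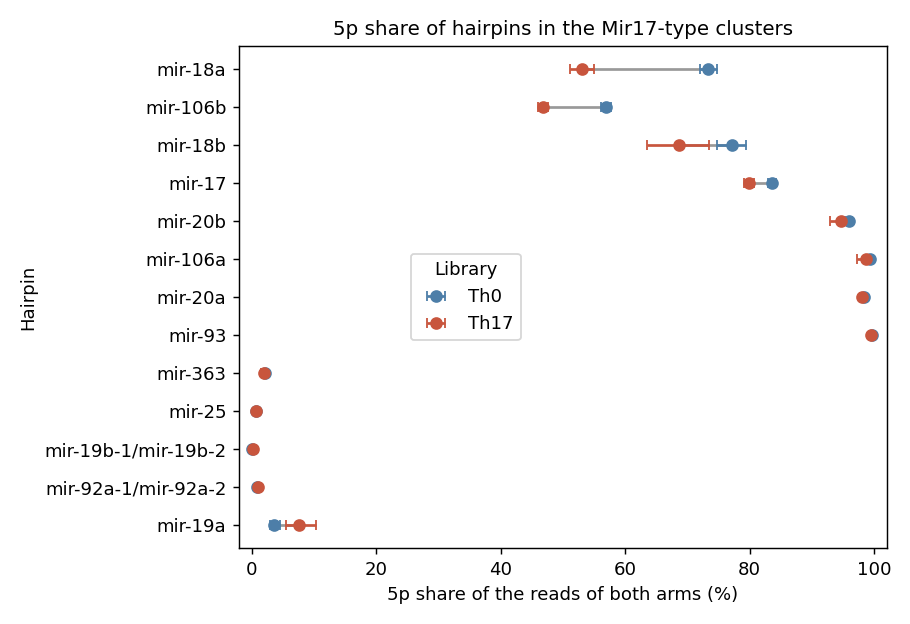
Share of 5p reads among the reads of both arms for the 13 hairpins of the 3 clusters with at least 100 reads in each library. Points are the Th0 and the Th17 library with exact 95% binomial intervals, and precursors that share a mature miRNA are joined. mir-18a spans 73.4 to 53.1%, the widest gap shown in percentage points.

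By likeness of the log2 ratio alone, the 3 miRNAs outside the cluster lists nearest to miR-18a-5p were miR-148a-3p at -1.50, miR-149-5p at -1.63 and miR-296-5p at -1.28. They were taken from 142 candidates averaging 100 CPM or more, and the likeness rests on 2 libraries. Their levels were unlike: miR-148a-3p was at 5542 CPM in Th0 and 1954 in Th17, miR-149-5p at 920 and 297 CPM, and miR-296-5p at 149 and 61.5 CPM.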

How the data were processed

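Small RNA of mouse Th0 and Th17 cells was sequenced from constructs of 140 to 150 bp, per the labels' protocols, which state triplicates. Each group has 1 column of reads, called its library here, and whether it is 1 replicate or a pool is not stated. For each library the authors deposited raw read counts per mature miRNA. They also deposited TPM values, which are those counts divided by 1 total per library (9072995 reads in Th0 and 13070648 in Th17). Per the submitters' processing notes the genome build was mm10. No header or label names the trimming tool, the aligner, the miRNA release or the treatment of reads matching several miRNAs. Counts were scaled by the sum of listed reads, and a miRNA missing from 1 library counted as 0, since the smallest listed count was 1. Ratios have exact Clopper-Pearson intervals that condition on the total of the paired counts, levels exact Poisson intervals, shares exact binomial (Clopper-Pearson) intervals and odds ratios exact conditional intervals, all at 95% (SciPy 1.17.1). Reads carry no molecular identifiers, so intervals cover counting error only. Precursors that share a mature miRNA were joined for 5p shares. A miRNA was counted as lower or higher at 2-fold with a mean of at least 10 CPM, and no p-value was computed. Alternatives used edgeR 4.0.16 TMM factors, DESeq2 1.42.0 size factors, the totals behind the deposited TPM and other minimums. Interval functions were tested on simulated data. Sequences and positions are from RefSeq (GRCm38.p6) and GENCODE M21. The members, lists and the rule for named miRNAs (members, cluster lists, marker lists, hairpins moving at least as far as mir-18a, and the 3 nearest log2 ratios) were chosen with earlier results of these data known.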

Additional observations from a re-analysis of the deposited data

How the results depend on the processing

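Of 81 alternative values, 62 stayed within the counting interval or within 1.5 times the count reported. No log2 ratio changed direction, and direction was read for the log2 ratios only. No paired analysis was possible because each group has 1 library, and for the same reason no replicate could be left out. Over all scalings and added constants, the log2 ratio ran from -1.59 to -1.40 for miR-18a-5p, -0.30 to -0.12 for miR-18a-3p, -2.73 to -2.36 for miR-18b-5p and -2.11 to -1.56 for miR-18b-3p. Leaving the cluster miRNAs out of the scaling total shifts every log2 ratio by -0.105 by construction, and gave -1.59 for miR-18a-5p and -1.38 for the sum of 4, which was -1.19 with DESeq2 size factors. Adding 5 CPM gave -2.36 for miR-18b-5p and -1.56 for miR-18b-3p, since it pulls low levels together. The counts of miRNAs at least 2-fold lower (39) and higher (20) became 76 and 60 at a minimum of 1 CPM, 15 and 13 at 100 CPM, 263 and 269 with no minimum, and 76 and 50 at 1.5-fold. The 13 of 23 cluster miRNAs (56.5%) became 8 of 16 (50%) at a minimum of 100 CPM, where 9.49% of all 158 miRNAs were at least 2-fold lower. The 5 hairpins that moved by 10 points became 20 at 20 reads, 3 at 500 reads and 24 at 5 points. The hairpins with odds changed 2-fold, 19 lower and 12 higher, became 12 and 7 at 500 reads, a setting chosen after seeing the data. 5p shares and within-library ratios do not depend on scaling, and 0.5 read added to each count left those of both hairpins and of the 5p pair within their intervals. That constant is small beside counts of 109 reads or more, so these alternatives could hardly move. Depth limits mir-18b most, with 348 reads in Th17.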

Other observations

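In both miR-18 hairpins the less abundant strand, here the 3p arm, gained share in Th17, and after this was seen the same was read in the other hairpins. The minor arm was taken as the one with under 50% of the mean share over both libraries. Of the 13 hairpins of the 3 clusters, 7 had a minor arm share higher in Th17 with an interval of the odds ratio above 1, 0 had one lower, and 6 had intervals that hold 1. The 7 were mir-18a, mir-18b, mir-17, mir-19a, mir-92a (both loci joined), mir-93 and mir-106b. Over all 167 hairpins 21.6% were higher and 24.6% lower, with a median odds ratio of 1.02. Without the miR-18 hairpins, 5 of 11 cluster hairpins were higher, and outside the clusters 29 of 154 were higher and 41 lower.

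Examples show the sizes. The 3p arm held 26.6% of the mir-18a reads in Th0 and 46.9% in Th17, and 22.9% and 31.3% of the mir-18b reads. For mir-93, within Mcm7, the 3p arm held 0.375% and 0.597%, odds 1.59-fold higher (1.41 to 1.80). For mir-19a the minor arm is 5p, so the gain there was toward 5p, with odds 2.19-fold higher (1.44 to 3.30). For mir-25 the odds were 0.980-fold (0.896 to 1.07). In mir-106b the arm called minor, 3p, held 43.1% in Th0 and 53.2% in Th17. It was thus the less abundant strand only in Th0. For mir-92a, joined over its loci, the 5p arm held 0.869% and 1.05%. A change in the mix of those loci cannot be told apart there from a change of arm. The pattern was chosen after its values were seen, rests on 1 library per group and has no test.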
